A study of Homo sapiens with 61 samples.

Results

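The 8 genes described here encode secreted proteins that cells release under stress: the stanniocalcins STC1 and STC2, the stress hormones GDF15, FGF21 and INHBE, the vascular peptides VEGFA and ADM, and the cytokine LIF. They are 8 of the 58440 genes in the deposited tables, taken from a list of secreted stress factors by matching their symbols to gene identifiers through GENCODE 29. STC1 was put on the list for its JUN-dependent rise with vincristine. It was thus chosen by its counts in Control gRNA and JUN gRNA, so these, and every difference that holds them, are given for STC1 as a description with no test.

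Neurons whose microtubules are damaged signal through the kinases DLK and LZK, which start a cascade that ends on the kinase JNK and on transcription factors such as JUN and ATF2. The same injury can engage the integrated stress response, in which ATF4 and its partners switch on genes for amino acid supply, redox balance and, in many tissues, secreted hormones. Stanniocalcins are glycoprotein hormones that act on calcium and phosphate handling and are made by many stressed cells. GDF15 acts on the hindbrain receptor GFRAL to lower food intake, FGF21 is a metabolic hormone that needs the co-receptor KLB, and INHBE encodes the subunit of activin E. VEGFA drives vessel growth and also acts on neurons through neuropilins, ADM encodes the vasodilator peptide adrenomedullin, and LIF signals through LIFR and IL6ST.

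RNA was sequenced from 61 libraries in 14 groups, all of them neurons that the transcription factor NGN2 had turned out of the human induced pluripotent stem cell line WTC11, an established line. In experiment 1 (32 libraries, 4 per group) a doxycycline cassette drove NGN2 in WT cells and in knockouts of DLK (gene MAP3K12; DLK KO), of LZK (gene MAP3K13; LZK KO) or of both (double KO). In experiment 2 (29 libraries, 5 per group and 4 for ATF2 gRNA with vincristine) the neurons carried the machinery of CRISPR interference, which silences a gene at its promoter, and a lentiviral guide RNA: a scrambled Control gRNA, ATF2 gRNA or JUN gRNA. At day 14, cultures of every line received 5 nM vincristine, which keeps microtubules from assembling, or the vehicle DMSO (labelled untreated) for 16 hours. All lines derive from 1 cell line, and the labels do not say whether replicates are separate differentiations or how many clones a knockout stands for, so p-values measure the spread between these samples, which may be technical.

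Libraries held 8.41 to 14.6 M counts (M, mega) in experiment 1 and 38.9 to 88.4 M in experiment 2, and no 2 replicates were copies of each other. In untreated cultures the targeted transcript stood at 28.9% of its control for MAP3K12 in DLK KO and 32.2% for MAP3K13 in LZK KO. It stood at 21.6% and 29.9% for the same genes in double KO, at 0.425% for ATF2 in ATF2 gRNA and at 3.21% for JUN in JUN gRNA. JUN was also low in untreated ATF2 gRNA, at 23.7% of Control gRNA. The summed level of 8 neuron markers ran from 5401 to 9097 CPM (the cpm unit of edgeR, which scales each library's counts to 1 total, with TMM factors) over all libraries, although the neuronal tubulin TUBB3 stood at only 5.51 to 46.1 CPM. Summed markers of astrocytes, fibroblasts and endothelial cells were at most 8.42, 5.2 and 3.04 CPM in any library. Summed pluripotency markers (5 genes) reached 62.2 CPM in double KO and 40.2 CPM in ATF2 gRNA, from LIN28A and DPPA4, while NANOG stayed at or under 0.484 CPM. In bulk RNA, fewer cells expressing a gene and less of its RNA per cell cannot be told apart.

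The first comparison asks what vincristine did to these genes in WT neurons and whether that depended on DLK and LZK. In WT, STC1, STC2, VEGFA and INHBE all rose steeply. The rise was smaller in each single knockout and none of the 4 was called in double KO. These 4 are the members with enough counts for a test in experiment 1, and the filter on low counts (filterByExpr, by group) removed GDF15, FGF21, ADM and LIF there. A gene is called when its p-value in the edgeR quasi-likelihood test, with Benjamini-Hochberg adjustment across the genes tested, is under 0.05. In WT 4 of the 4 were called, against 30.2% of all genes tested.

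STC1 (ENSG00000159167.11, GRCh38 chromosome 8, 23841915 to 23854807) stood at 4.30, 4.10, 5.27 and 4.57 CPM in untreated WT and at 28.9, 31.1, 32.9 and 34.5 CPM with vincristine. Every treated library lay far above every untreated one. The log2 fold change was 2.79 ± 0.14 (SE; edgeR adjusted p = 9.17e-18). In DLK KO it stood at 6.12, 6.28, 4.15 and 4.95 CPM untreated and 12.7, 11.5, 9.62 and 11.4 CPM with vincristine, a rise of 1.07 ± 0.15 (edgeR adjusted p = 8.51e-06) with the libraries again apart. In LZK KO the groups overlapped, at 2.73, 3.73, 2.68 and 2.35 CPM untreated against 3.32, 6.06, 7.16 and 5.08 CPM. That rise of 0.92 ± 0.19 was called (edgeR adjusted p = 0.00269), but not in a fit of only these 2 groups (0.93, adjusted p = 0.0743). In double KO the levels were 6.97, 7.54, 6.88 and 8.01 CPM untreated and 7.84, 5.96, 5.90 and 7.13 CPM with vincristine. They overlapped, and the log2 fold change of -0.14 ± 0.15 was not called (edgeR adjusted p = 0.861).

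STC2, the paralog of STC1 (ENSG00000113739.10, chromosome 5, 173314713 to 173329503), rose as well. It stood at 1.15, 2.80, 1.47 and 1.49 CPM in untreated WT and at 35.0, 27.5, 28.3 and 26.1 CPM with vincristine, a log2 fold change of 4.08 ± 0.22 (edgeR adjusted p = 2.79e-17). With vincristine it reached only 4.56, 2.82, 2.97 and 4.38 CPM in DLK KO and 3.10, 2.26, 3.48 and 3.27 CPM in LZK KO. Both knockouts thus ended well below WT, and in both the treated libraries still lay above all untreated ones, which held 0.361 to 1.68 CPM. The rises were 1.61 ± 0.29 in DLK KO and 2.38 ± 0.37 in LZK KO (edgeR adjusted p = 0.000435 and 5.49e-05). In double KO, STC2 stood at 0.923 to 1.98 CPM untreated and 0.751 to 1.96 CPM with vincristine, ranges that overlap almost wholly (0.05 ± 0.35, not called).

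INHBE (ENSG00000139269.2, chromosome 12, 57452323 to 57459280) encodes a subunit of the activin family that is made mainly by the liver. Its untreated WT libraries stood at 2.01, 1.30, 1.26 and 2.19 CPM and its vincristine libraries at 26.7, 25.2, 23.3 and 29.5 CPM. The gap was wide, and the log2 fold change was 3.97 ± 0.17 (edgeR adjusted p = 9.72e-20). In DLK KO it went from 2.97, 2.09, 2.30 and 2.15 CPM to 6.99, 7.00, 6.30 and 6.86 CPM, and in LZK KO from 0.341, 0.842, 0.648 and 0.824 CPM to 3.32, 2.26, 3.89 and 3.51 CPM. The groups stood apart in both lines, with rises of 1.5 ± 0.19 and 2.29 ± 0.28. In double KO it stood at 0.755 to 1.76 CPM untreated and 0.751 to 1.39 CPM with vincristine (-0.18 ± 0.29, not called).

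VEGFA (ENSG00000112715.21, chromosome 6, 43770184 to 43786487) had the highest untreated WT mean of the 4 per kilobase of exon (1.38 CPM per kb, against 1.10 for STC1), but its libraries overlapped those of STC1. Its exons overlap an antisense gene, AL136131.3, and the strand setting of the counting is not stated. It stood at 22.8, 19.5, 21.4 and 15.8 CPM in untreated WT and at 106, 98.3, 89.0 and 71.3 CPM with vincristine, with no overlap (2.19 ± 0.16, edgeR adjusted p = 2.43e-12). It rose by 0.95 ± 0.18 in DLK KO, where treated libraries held 20.5 to 27.4 CPM and untreated ones 9.18 to 15.4 CPM. It rose by 0.86 ± 0.19 in LZK KO, where they held 14.2 to 23.0 and 9.02 to 11.8 CPM. In double KO the ranges of 6.70 to 10.2 CPM untreated and 5.54 to 11.3 CPM with vincristine overlapped (-0.11 ± 0.21, not called).

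**Figure D1:**
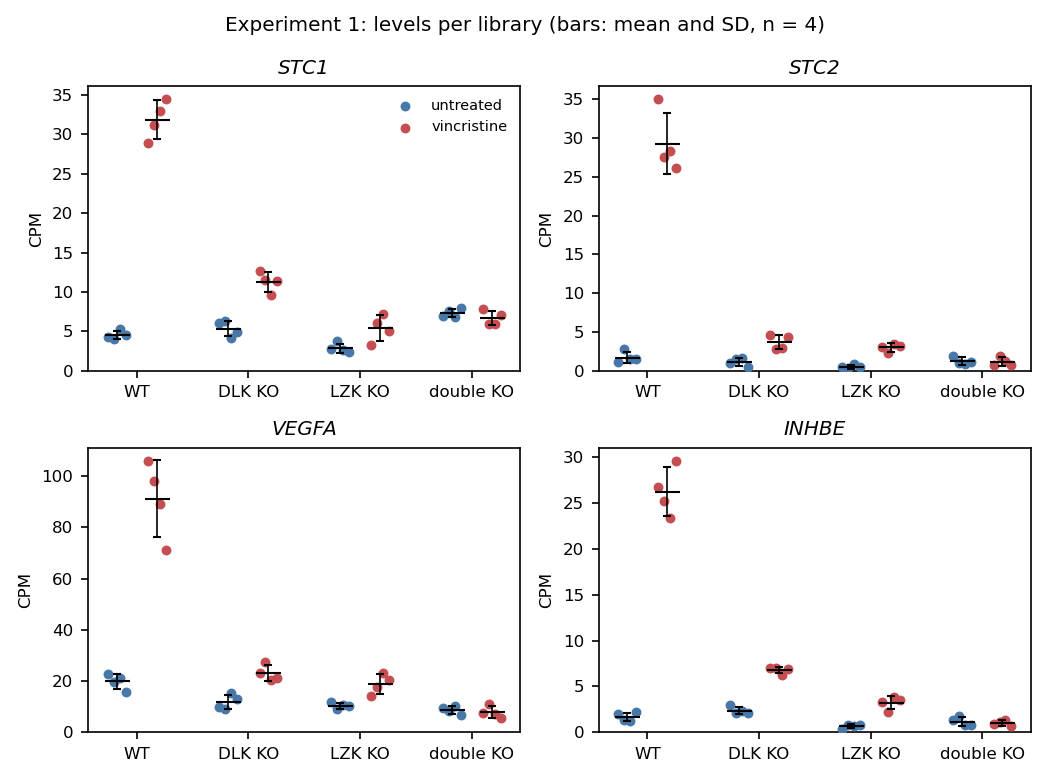
Levels in CPM (linear axes from 0) of STC1, STC2, VEGFA and INHBE in each library of experiment 1, untreated (blue) and with vincristine (red), with the mean and SD of the 4 libraries. The WT vincristine libraries stand above all others in each panel, at 28.9 to 34.5 CPM for STC1, and the 2 groups of double KO overlap.

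Of the 4 members tested, 4 were called in DLK KO, where 6.53% of all genes were called, 4 in LZK KO (3.88%) and 0 in double KO (0.0658%, 12 genes). The 4 members in double KO had unadjusted p-values from 0.351 to 0.892, and DESeq2 called none of them there either. The shares of all genes depend on the fit. With the 2 groups of a line fitted alone, 3207 genes were called in DLK KO (1190 otherwise), 271 in LZK KO (707 otherwise) and 1028 in double KO, where still none of the 4 was called. Leaving out 1 library also lowered these counts, to 598 in DLK KO without DLK KO untreated replicate 1, and to 452 in LZK KO without LZK KO untreated replicate 2. The median of the 4 log2 fold changes was 3.38 for WT, 1.29 for DLK KO, 1.60 for LZK KO and -0.13 for double KO, beside medians over all genes tested that were at most 0.01 in size. Members that pass a filter on low counts are those expressed in some group, so these counts and medians are no measure of the 8 genes together.

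The difference in the vincristine effect between lines was tested directly, as an interaction term. In DLK KO against WT it was called for 4 of 4 members (19.4% of all genes), at -1.72 ± 0.21 for STC1, -2.47 ± 0.41 for STC2, -2.46 ± 0.27 for INHBE and -1.24 ± 0.24 for VEGFA. The largest adjusted p among them was 0.000414 (edgeR). In LZK KO against WT, 4 of 4 were called (12.4% of all genes), at -1.87 ± 0.25, -1.70 ± 0.53, -1.68 ± 0.40 and -1.33 ± 0.25 in the same order. The STC2 value was the least firm (edgeR adjusted p = 0.0291). It was no longer called without LZK KO untreated replicate 3 (-1.28, adjusted p = 0.204), and it also lost the call without WT untreated replicate 1 or 3 (adjusted p = 0.0510 and 0.0531). In double KO against WT, 4 of 4 were called (19.4% of all genes), at -2.94 ± 0.21, -4.03 ± 0.44, -4.15 ± 0.35 and -2.31 ± 0.26. These 3 differences share the WT libraries, so they are not independent of each other.

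With vincristine, the mean of STC1 in double KO was 21.1% of that in WT, against 4.09% for STC2, 3.92% for INHBE and 8.68% for VEGFA. STC1 thus stood at a larger share of its treated WT level than the other 3. This was no remaining rise, since its untreated double KO mean was 7.35 CPM, already 161% of that in untreated WT. Its double KO level with vincristine, 6.71 ± 0.945 CPM (SD, n = 4), was above the 4.56 ± 0.509 CPM of untreated WT. The order of STC1 in experiment 1 began with WT and then DLK KO with vincristine, which stood apart from each other and from the rest. From double KO untreated down through double KO with vincristine, LZK KO with vincristine and DLK KO untreated to WT untreated, each group overlapped its neighbour. LZK KO untreated came last and apart.

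Markers of other cells moved with some of these values. The summed level of 5 neural progenitor markers, most of it NES outside double KO, was 779 to 824 CPM in untreated WT and 1055 to 2094 CPM with vincristine. It went from 226 to 295 up to 521 to 635 CPM in DLK KO and from 549 to 703 up to 1053 to 1253 CPM in LZK KO, and stood at 288 to 305 CPM in both groups of double KO. Singly, 2 of the 5 markers were called higher and 0 lower with vincristine in WT (30.2% of all genes called). The numbers were the same in DLK KO (6.53%) and LZK KO (3.88%), and 0 was called in double KO (0.0658%). The part of these markers in the changes of the secreted factors was not tested. The 2 progenitor markers PAX6 and HES5 stayed at or under 6.36 CPM in every library of experiment 1.

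The second comparison asks how silencing ATF2 or JUN altered the response. In Control gRNA, STC1, STC2, VEGFA, INHBE and GDF15 were higher with vincristine. With JUN gRNA, STC1 stood level with its untreated libraries, the pattern it was chosen for, and GDF15, INHBE, VEGFA and STC2 rose. With ATF2 gRNA, STC1, STC2, VEGFA and INHBE also rose, by less than in Control gRNA, and GDF15 was not called. There GDF15, INHBE and VEGFA already stood high in untreated cultures. The direct comparison of the guides, given below, called none of STC2, VEGFA and INHBE. Outside STC1, 4 of 5 members tested were called in Control gRNA (35.3% of all genes), the fifth being ADM. The numbers were 4 of 6 in ATF2 gRNA (6.10%; STC1, STC2, VEGFA and INHBE, not GDF15 or ADM) and 4 of 5 in JUN gRNA (15.9%; GDF15, STC2, VEGFA and INHBE).

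STC1 stood at 3.86, 6.22, 5.15, 6.45 and 5.53 CPM in untreated Control gRNA and at 47.4, 43.3, 44.1, 43.7 and 41.3 CPM with vincristine. In JUN gRNA it stood at 3.14, 3.94, 3.38, 3.13 and 3.67 CPM untreated and 3.38, 3.88, 3.22, 2.23 and 3.76 CPM with vincristine. The groups lie far apart in Control gRNA and overlap in JUN gRNA, which is the pattern the gene was chosen for, with log2 fold changes of 3.02 and -0.07. In ATF2 gRNA, which the choice did not use, it went from 6.22, 7.64, 7.08, 5.37 and 7.31 CPM to 9.84, 11.8, 11.7 and 11.6 CPM, with no overlap. That rise of 0.74 ± 0.12 was called (edgeR adjusted p = 4.56e-05). With vincristine STC1 in ATF2 gRNA stood at 25.5% of its mean in Control gRNA, and in JUN gRNA at 7.50%. In the order of STC1 levels, treated Control gRNA and then treated ATF2 gRNA each stood apart from the next. From untreated ATF2 gRNA through untreated Control gRNA and untreated JUN gRNA to treated JUN gRNA, each group overlapped its neighbour.

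STC2 stood at 16.9, 20.2, 15.8, 16.5 and 15.5 CPM in untreated Control gRNA and at 48.9, 54.3, 51.0, 49.8 and 41.1 CPM with vincristine (1.54 ± 0.08, edgeR adjusted p = 3.06e-21). With ATF2 gRNA its vincristine libraries stood at 31.8, 31.5, 29.7 and 30.5 CPM and with JUN gRNA at 24.5, 29.4, 30.7, 28.5 and 23.7 CPM, from untreated levels of 17.1 to 19.4 and 15.6 to 18.3 CPM. Treated and untreated libraries were apart in all 3 lines, and the rises with the 2 guides were close in size. They were 0.74 ± 0.08 for ATF2 gRNA and 0.72 ± 0.08 for JUN gRNA. In fold terms STC2 rose 1.64-fold in the JUN gRNA neurons. STC1 stood there at 0.955-fold of its untreated level, the pattern it was chosen for, so no difference between the paralogs is drawn from these values.

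VEGFA stood at 29.5, 27.8, 23.7, 25.0 and 23.8 CPM in untreated Control gRNA and at 83.4, 90.0, 89.4, 88.0 and 84.6 CPM with vincristine (1.75 ± 0.07, edgeR adjusted p = 1.11e-25). In ATF2 gRNA it went from 44.5, 45.5, 47.5, 44.4 and 48.0 CPM to 61.1, 65.2, 68.9 and 63.3 CPM. In JUN gRNA it went from 20.1, 19.5, 25.1, 22.7 and 18.5 CPM to 35.6, 39.6, 39.1, 34.7 and 33.4 CPM. The groups were apart in every line. The rise was 0.49 ± 0.07 with ATF2 gRNA, which began from the higher untreated level, and 0.78 ± 0.07 with JUN gRNA.

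INHBE also rose in each line. Untreated Control gRNA stood at 36.3, 41.2, 31.9, 29.8 and 29.6 CPM and the vincristine libraries at 93.7, 103, 94.5, 95.2 and 85.8 CPM (1.49 ± 0.09, edgeR adjusted p = 5.67e-15). In ATF2 gRNA it stood at 106, 91.0, 103, 98.7 and 99.5 CPM untreated, as high as treated Control gRNA, and at 152, 154, 139 and 157 CPM with vincristine. JUN gRNA gave 31.4, 33.1, 41.1, 35.6 and 31.6 CPM untreated and 71.7, 67.2, 80.9, 65.1 and 57.8 CPM with vincristine. Treated libraries stood above untreated ones in each line, by 0.59 ± 0.09 with ATF2 gRNA and 0.99 ± 0.09 with JUN gRNA. The treated level in ATF2 gRNA was 159% of that in treated Control gRNA, with no overlap, so the smaller fold there went with the higher level.

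GDF15 (ENSG00000130513.6, chromosome 19, 18374731 to 18389176) is a hormone of the TGF-beta family whose blood level rises in mitochondrial and other stress. It was scarce in untreated Control gRNA, at 0.187, 0.185, 0.192, 0.325 and 0.181 CPM, which are 7 to 15 counts per library, and stood at 1.15, 1.49, 1.40, 1.68 and 1.64 CPM (66 to 104 counts) with vincristine. The groups did not overlap (2.77 ± 0.33, edgeR adjusted p = 3.26e-09). In JUN gRNA it went from 0.282, 0.0379, 0.322, 0.116 and 0.655 CPM to 0.660, 0.997, 1.00, 1.48 and 1.45 CPM, apart by a narrow margin (2.00 ± 0.31, edgeR adjusted p = 3.93e-06). In ATF2 gRNA it stood at 9.87, 8.63, 7.56, 8.02 and 7.58 CPM untreated and at 7.60, 10.7, 10.4 and 13.9 CPM with vincristine, all of them far above every library of the other 2 lines. These groups overlapped, and the log2 fold change of 0.35 ± 0.25 was not called (edgeR adjusted p = 0.506).

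**Figure D2:**
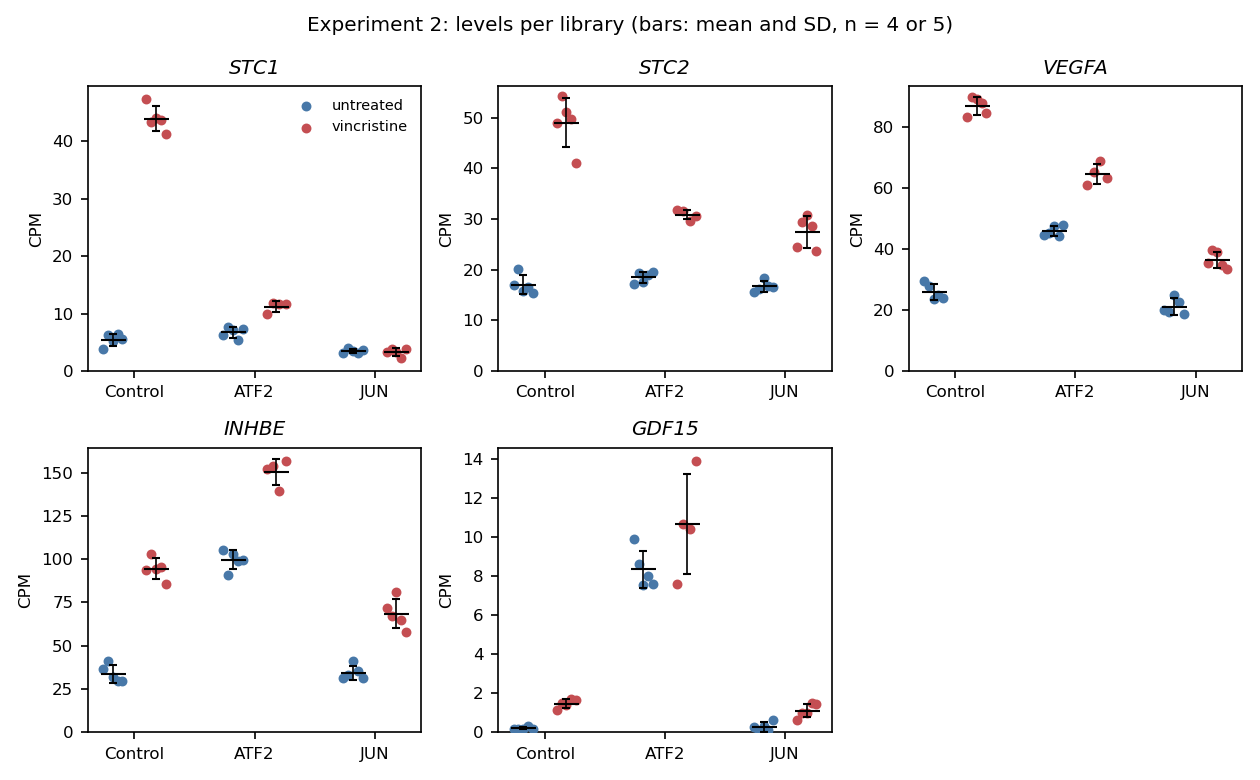
Levels in CPM (linear axes from 0) of STC1, STC2, VEGFA, INHBE and GDF15 in each library of experiment 2, untreated (blue) and with vincristine (red), with the mean and SD of 4 or 5 libraries. STC1 is flat in JUN gRNA, and in ATF2 gRNA GDF15 stands at 7.56 to 13.9 CPM with and without vincristine.

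Differences in effect were tested for the members other than STC1. In ATF2 gRNA against Control gRNA 4 of 5 were called (20.6% of all genes), at -0.79 ± 0.11 for STC2, -1.26 ± 0.10 for VEGFA, -0.89 ± 0.12 for INHBE and -2.42 ± 0.42 for GDF15 (edgeR adjusted p = 2.03e-05 for the last). In JUN gRNA against Control gRNA 3 of 5 were called (15.8% of all genes). These were STC2 (-0.82 ± 0.11), VEGFA (-0.97 ± 0.09) and INHBE (-0.50 ± 0.12). GDF15 was not called there (-0.77 ± 0.46, edgeR adjusted p = 0.312), and the value was -0.32 without JUN gRNA untreated replicate 5, the library with its highest untreated level in that line. Both sets of differences share the Control gRNA libraries.

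The 2 guides were also compared with each other, and 1 of 5 members was called (2.83% of all genes). GDF15 differed by -1.64 ± 0.40 (edgeR adjusted p = 0.0119), and the call was lost when those 4 groups were fitted alone (-1.63, adjusted p = 0.0640). STC2 did not differ beyond its error (0.03 ± 0.11). VEGFA (-0.29 ± 0.10, edgeR adjusted p = 0.0962) and INHBE (-0.39 ± 0.12, edgeR adjusted p = 0.0866) were not called. Without JUN gRNA untreated replicate 3 both were called (-0.36 and -0.46), as INHBE was without JUN gRNA vincristine replicate 5 (-0.44) and with DESeq2 (-0.38). For STC1, the difference in log2 fold change from Control gRNA was -2.28 for ATF2 gRNA and -3.08 for JUN gRNA, and it was 0.81 between the 2 guides.

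**Figure D3:**
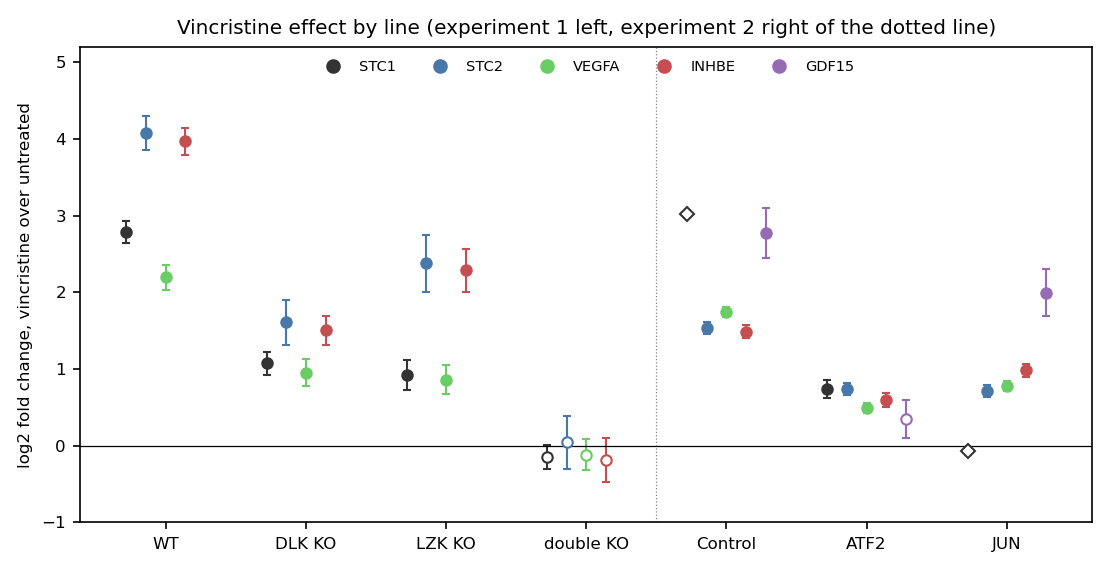
Log2 fold change with vincristine over untreated for 5 members in each of the 7 lines, with SE bars. Filled points are called, open circles are not called, and open diamonds mark STC1 values given with no test. In double KO the 4 members lie near 0, and in JUN gRNA STC1 alone of the 5 lies near 0, the pattern it was chosen for.

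The summed progenitor markers moved here too, at 1326 to 1418 CPM in untreated Control gRNA and 2559 to 2655 CPM with vincristine. The sum went from 965 to 1088 up to 1669 to 1775 CPM in JUN gRNA. In ATF2 gRNA it stood at 763 to 838 CPM untreated and 729 to 838 CPM with vincristine. Most of it was NES (661 to 2494 CPM), while PAX6 and HES5 stayed at or under 7.75 and 1.61 CPM. Singly, 3 of the 5 were called higher and 0 lower with vincristine in Control gRNA (35.3% of all genes called). The numbers were 2 and 0 in JUN gRNA (15.9%) and 2 and 0 in ATF2 gRNA (6.10%). In untreated ATF2 gRNA, 3 were called higher and 1 lower than in untreated Control gRNA (39.9% of all genes called). The summed neuron markers went from 7874 to 8268 down to 6370 to 6809 CPM in Control gRNA, from 7589 to 8122 down to 6499 to 6747 CPM in JUN gRNA, and from 5880 to 6182 down to 5407 to 5610 CPM in ATF2 gRNA. Of the 8 neuron markers, 3 were called higher and 4 lower with vincristine in Control gRNA (35.3% of all genes called). The numbers were 2 and 4 in JUN gRNA (15.9%) and 0 and 3 in ATF2 gRNA (6.10%). Whether markers of either list played a part in the values of the secreted factors was not tested.

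The third comparison sets the untreated lines against their control. The largest values were in ATF2 gRNA, where 3 of 5 members were called (39.9% of all genes), each higher. GDF15 stood at 8.33 ± 0.963 CPM (SD, n = 5) against 0.214 ± 0.0619 CPM in Control gRNA, a log2 fold change of 5.28 ± 0.32, or 38.8-fold (edgeR adjusted p = 1.4e-17). INHBE was higher by 1.56 ± 0.09 and VEGFA by 0.83 ± 0.07, with every ATF2 gRNA library above every Control gRNA library. STC2 was not called (0.13 ± 0.08), and STC1 stood at 6.72 ± 0.922 against 5.44 ± 1.02 CPM with overlapping libraries. The members thus differed unequally from Control gRNA, GDF15 most and the stanniocalcins least. Pluripotency markers were also higher in untreated ATF2 gRNA, at 33.8 to 40.2 CPM summed against 9.58 to 13.5 CPM, and their part in these differences was not tested.

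In untreated JUN gRNA 1 of 5 was called (11.2% of all genes): VEGFA, lower by a log2 fold change of -0.29 ± 0.07 with overlapping libraries (edgeR adjusted p = 0.00218). GDF15 (0.38 ± 0.38), INHBE (0.04 ± 0.09) and STC2 (-0.02 ± 0.08) were not called. STC1 stood at 3.45 ± 0.351 CPM against 5.44 ± 1.02 CPM in Control gRNA, 63.4% of its level, and 1 Control gRNA library lay within the JUN gRNA range.

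In untreated LZK KO all 4 members tested were called (33.9% of all genes), each lower, with libraries apart from WT for each gene. STC2 stood at 0.455, 0.361, 0.925 and 0.471 CPM (-1.56 ± 0.40), the log2 difference was -1.31 ± 0.31 for INHBE, -0.93 ± 0.19 for VEGFA and -0.68 ± 0.19 for STC1 (edgeR adjusted p = 0.00548 for the last). In DLK KO 1 of 4 was called (34.5% of all genes), VEGFA at -0.74 ± 0.18. In double KO 2 of 4 were called (45.7% of all genes), in opposite directions, with VEGFA lower at -1.20 ± 0.19 and STC1 higher at 0.68 ± 0.16 (edgeR adjusted p = 0.00063). VEGFA was therefore lower without vincristine in all 3 knockout lines, and STC1 was lower in LZK KO and higher in double KO. INHBE in DLK KO (0.52 ± 0.23) was not called, but was without WT untreated replicate 4 (0.67), and INHBE in double KO (-0.48 ± 0.26) was not called, but was without double KO untreated replicate 2 (-0.77). Pluripotency markers also differed between these untreated lines, at 2.81 to 3.35 CPM summed in WT, 10.3 to 14.3 in DLK KO, 13.2 to 18.8 in LZK KO and 52.9 to 59.1 in double KO. The summed level of progenitor markers was below the 779 to 824 CPM of WT for each knockout, as given above. Taken singly, 3 of these 5 markers were called higher and 2 lower for untreated LZK KO (33.9% of all genes called). For DLK KO the numbers were 1 higher and 3 lower (34.5%), and for double KO 2 and 2 (45.7%). The part of either list in these differences was not tested. These comparisons share the untreated WT libraries.

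**Figure D4:**
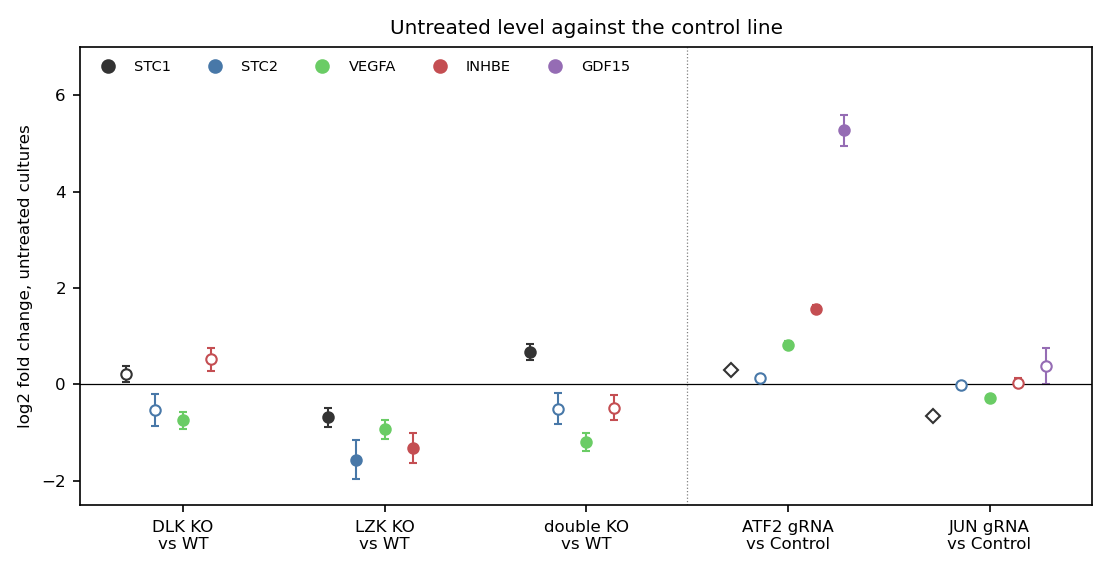
Log2 fold change of the untreated lines over their control line for 5 members, with SE bars. Filled points are called, open circles are not called, and open diamonds mark STC1 values with no test. GDF15 in ATF2 gRNA lies highest, at 5.28, and VEGFA is the member below 0 in all 3 knockout lines with a call.

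The remaining members were rare. GDF15 in experiment 1 held 1, 0, 2 and 2 counts in untreated WT and 11, 5, 7 and 9 with vincristine, and at most 6 counts in any library of the knockout lines. The treated WT libraries were thus above all untreated WT libraries, and with no filter on low counts the log2 fold change was 2.69 (edgeR adjusted p = 0.00624). In the 3 knockout lines vincristine libraries held 0 to 4 counts, fewer than any treated WT library. With no filter, vincristine was not called in these lines. The difference in effect from WT was not called either, with the smallest edgeR adjusted p in LZK KO (-3.77, adjusted p = 0.0588). A small change could be missed at this depth, where 3 counts are worth 0.211 to 0.363 CPM.

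ADM (ENSG00000148926.9, chromosome 11, 10304680 to 10307397) held at most 4 counts in experiment 1 and was at 0 in 13 of 32 libraries. In experiment 2 it held 0, 0, 0, 7 and 0 counts in untreated Control gRNA and 11, 9, 4, 7 and 0 with vincristine. Untreated ATF2 gRNA held 30, 11, 0, 2 and 6, and the other groups at most 16. The groups overlapped throughout and no comparison was called. Without the single library that held 7 counts, untreated Control gRNA was left at 0, and the edgeR adjusted p fell to 0.0376 for vincristine in Control gRNA and 0.00945 for untreated ATF2 gRNA.

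LIF (ENSG00000128342.4, chromosome 22, 30240447 to 30246851) was at 0 in 19 of 32 libraries of experiment 1 and 19 of 29 of experiment 2, with at most 6 and 11 counts. Its exons overlap the antisense genes LIF-AS1 and AC004264.1. In treated WT it held 0, 0, 2 and 6 counts and in untreated WT 0, 1, 3 and 1, which overlap.

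FGF21 (ENSG00000105550.9, chromosome 19, 48755559 to 48758333) was at 0 in 27 of 32 libraries of experiment 1 and 21 of 29 of experiment 2. Its highest values were 10 counts in a library of ATF2 gRNA with vincristine and 8 in 1 of Control gRNA with vincristine, and all 5 untreated Control gRNA libraries were at 0. FGF21 is a known ATF4 target, and the stretch before its start site is shown because it holds the element that ATF4 dimers bind. RefSeq windows of 250 bases before the start were found for STC2, GDF15, FGF21 and ADM, 4 of the 8 members. By GENCODE 29, 250 bases of the STC2 and ADM windows and 241 of the GDF15 window lie in exons of the same gene, so these 3 windows are mostly transcribed sequence. Of the FGF21 window, 101 bases lie in exons of another gene, FUT1, and are not shown. All 4 were searched on both strands for TGANTCA (the AP-1 element of JUN dimers), TGACGTCA (the CRE, which ATF2 and JUN can bind), TGATGNAA (the C/EBP-ATF response element, CARE) and ACGTG (the core of hypoxia elements). The sequence below lies at chr19:48755391-48755523 on the plus strand of GRCh38.p14, outside annotated exons. Its capitals mark the reverse complement of TGATGNAA, 54 to 47 bases before the RefSeq start, which is the base after the last one shown and lies upstream of the GENCODE start given above.
FGF21: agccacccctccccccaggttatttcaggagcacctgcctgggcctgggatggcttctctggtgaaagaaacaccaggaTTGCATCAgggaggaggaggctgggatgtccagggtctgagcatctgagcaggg
That was the 1 match among the 4 windows. Of 35116 such windows 3.14% hold a CARE match, 6.57% an AP-1 match, 1.65% a CRE match and 18.5% the hypoxia core. These are matches of letters and no measure of binding.

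Levels were compared between members per kilobase of exon. In treated Control gRNA, INHBE stood at 31.3 CPM per kb, STC1 at 10.6, STC2 at 8.00, VEGFA at 6.03 and GDF15 at 0.705. In treated WT of experiment 1 the order was INHBE at 8.69, STC1 at 7.68, VEGFA at 6.32 and STC2 at 4.77 CPM per kb. INHBE thus had the highest mean in both treated control lines, but its WT libraries (7.73 to 9.80) overlapped those of STC1 (6.96 to 8.32), and the order differed in other groups. In treated DLK KO, STC1 stood at 2.73 CPM per kb and INHBE at 2.25. Untreated INHBE was 0.561 CPM per kb in WT and 11.2 in Control gRNA, values from tables made separately and set side by side only.

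The genes whose pattern was most like that of STC1 were sought among 12337 genes by the smaller of the Pearson correlations of group mean log2 CPM, over the 8 groups of experiment 1 and the 6 of experiment 2. The first 5 were MIEF2 (0.936), a mitochondrial fission adaptor, WHAMM (0.930), an actin nucleation factor, DNMBP (0.926), a scaffold that activates the GTPase Cdc42, DLC1 (0.924) and PI4KB (0.921), a Golgi lipid kinase. Group means share the same vincristine contrast, so such values are a description. The likeness is of shape and not of size. DLC1 went from 5.59 ± 0.626 to 18.5 ± 2.46 CPM in WT, from 4.30 ± 0.506 to 8.19 ± 1.56 CPM in Control gRNA and from 2.93 ± 0.574 to 3.10 ± 0.846 CPM in JUN gRNA. ATF2 gRNA departed from the likeness, since STC1 rose there while DLC1 stood at 4.16 ± 0.425 CPM untreated and 3.76 ± 1.03 CPM with vincristine, and PI4KB at 101 ± 5.25 and 99.3 ± 5.95 CPM. Among members STC2 ranked 59, VEGFA 90 and INHBE 563, the last with a correlation of 0.891 in experiment 1 and 0.547 in experiment 2.

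Other genes of these pathways were taken from 4 lists, with counts over all genes tested as above. Of 12 stress-responsive factors linked to ATF4, 11 were tested in each experiment. The number that rose was 11 for WT (30.2% of all genes called), 5 for DLK KO (6.53%), 10 for LZK KO (3.88%) and 0 for double KO (0.0658%). With Control gRNA (35.3%) 10 rose and ATF4 itself was called slightly lower (-0.10 ± 0.04). With ATF2 gRNA 10 rose (6.10%), and with JUN gRNA 8 (15.9%). The medians of the 11 were 2.44 in WT and 1.71 in Control gRNA, beside -1.89e-05 and 0.03 over all genes tested. The lists were chosen with earlier results of these data known, so these counts and medians are a description. DDIT3, the factor CHOP, rose by 3.14 ± 0.16 in WT and 2.89 ± 0.07 in Control gRNA.

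Untreated ATF2 gRNA had 9 of these 11 higher than Control gRNA and 1 lower (39.9% of all genes called), as GDF15 and INHBE were higher there. ATF5, a relative of ATF4, was higher by 2.78 ± 0.06, DDIT3 by 2.53 ± 0.07 and TRIB3, a pseudokinase that ATF4 induces, by 1.80 ± 0.06. In untreated LZK KO, where the 4 members were lower, 7 of the 11 were lower and 1 higher (33.9% of all genes called). In untreated DLK KO 5 were lower (34.5% of all genes called) and in untreated double KO 6 were lower and 1 higher (45.7%).

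Genes linked to hypoxia, a response in which VEGFA and ADM are classical targets, went in both directions. Of 9 tested in WT 2 rose and 3 fell (30.2% of all genes called), and of 10 in Control gRNA 3 rose and 2 fell (35.3%). NDRG1 (2.98 ± 0.17 and 2.52 ± 0.09) and the repressor BHLHE40 (3.48 ± 0.24 and 4.32 ± 0.29) rose in both. The glucose transporter SLC2A1 (-1.01 ± 0.11 and -0.87 ± 0.06) and the mitophagy factor BNIP3 (-0.46 ± 0.09 and -0.39 ± 0.05) fell in both, and HIF1A fell in WT (-0.39 ± 0.07). VEGFA thus rose in libraries in which some hypoxia-linked genes rose and others fell, and the part of hypoxia in its rise was not tested.

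Receptors and partners of the members also went both ways. Of 12 tested in WT 1 rose and 3 fell, a share near the 30.2% of all genes called there, and of 16 in Control gRNA 5 rose and 4 fell (35.3% of all genes). The VEGFA co-receptors went opposite ways. NRP1 fell by 0.66 ± 0.08 in WT and 1.11 ± 0.06 in Control gRNA, and NRP2 rose by 0.49 ± 0.14 and 1.22 ± 0.06. RET, through which GDF15 and GFRAL signal, fell by 0.78 ± 0.12 and 0.70 ± 0.05. FLT1, a VEGFA receptor, rose in Control gRNA by 1.37 ± 0.14. The LIF receptor subunits LIFR (0.22 ± 0.08) and IL6ST (0.59 ± 0.09) rose in Control gRNA as well.

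Of 21 relatives of the members, 8 were tested in experiment 1 and 15 in experiment 2. In WT 4 rose and 1 fell (30.2% of all genes called), and in Control gRNA 5 rose and 1 fell, a share close to the 35.3% of all genes. ADM2, which encodes intermedin and acts on the receptors of adrenomedullin, rose in each line in which INHBE rose. Its log2 fold change was 3.55 ± 0.22 for WT, 1.66 ± 0.35 for DLK KO and 1.40 ± 0.32 for LZK KO, and it was not called in double KO (-0.12 ± 0.47). With the guides it was 1.46 ± 0.11 for Control gRNA, 0.61 ± 0.11 for ATF2 gRNA and 0.87 ± 0.11 for JUN gRNA. It was also higher in untreated ATF2 gRNA (0.76 ± 0.11). VEGFC rose in WT (1.88 ± 0.54), IL11 (1.12 ± 0.25) rose in Control gRNA, and GDF11, a relative of GDF15 in the TGF-beta family, fell in both (-0.60 ± 0.09 and -0.57 ± 0.04).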

How the data were processed

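Poly(A)-selected RNA of 61 libraries was sequenced as read pairs from a stranded kit, per the labels' protocols. The authors deposited raw counts per gene, as whole numbers, in a table for each experiment. Per the submitters' processing notes, the tools were cutadapt 3.4, STAR and featureCounts of Subread 2.0.1 on GRCh38. The strand setting and the counting of duplicates are not given in the sources used here. Of 58440 identifiers, 56992 had the same version in GENCODE 29 and 58320 were matched to a symbol. Depth was 8.41 to 14.6 M (M, mega) counts per library in experiment 1 and 38.9 to 88.4 M in experiment 2. Counting error is part of the SE of low members, such as untreated LZK KO with 21 STC2 and 24 INHBE counts over 4 libraries.

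Each experiment was fitted alone, with all its groups in 1 fit, with the quasi-likelihood test of edgeR 4.0.16 (robust, TMM factors, filterByExpr by group) in R 4.3.3, 2-sided, with Benjamini-Hochberg adjustment over all genes tested (18235 and 20759). The 18 comparisons were 7 vincristine effects, 6 differences between them and 5 untreated lines against their control. SE is the log2 fold change over the square root of F. CPM are levels scaled with TMM factors. Levels per kb use the gene lengths of the deposited tables. Named are the 8 members, context genes called in WT or Control gRNA and the 5 genes most like STC1, among genes with a mean log2 CPM of at least 1 in both experiments (prior count 2). The members and the gene lists were chosen with earlier results of these data known.

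The alternatives were DESeq2 1.42.0, RLE factors in edgeR, all genes with a count, genes with a mean CPM of at least 1, a replicate block, each comparison fitted on its own groups, and 1 library left out at a time. Sequences are from RefSeq (GRCh38.p14). Figures were drawn with matplotlib 3.10.9 in Python 3.11.15.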

Additional observations from a re-analysis of the deposited data

Results flagged for a closer look

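In 2 of 62 sets of a member and a group, 1 library stood apart from the others by Dixon's criterion, which chance meets in about 1 set in 20. STC1 in ATF2 gRNA vincristine replicate 2 stood at 9.84 CPM, against 11.6 to 11.8 CPM in the other 3. GDF15 in Control gRNA untreated replicate 4 stood at 0.325 CPM, against 0.181 to 0.192 CPM in the other 4.

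The vincristine effect differed between lines in 20 tests of the difference itself (edgeR interaction, adjusted over all genes). Each had a smaller log2 fold change in the first line named. Against WT, the log2 differences for DLK KO, LZK KO and double KO were -1.72, -1.87 and -2.94 for STC1. They were -2.47, -1.70 and -4.03 for STC2, -1.24, -1.33 and -2.31 for VEGFA, and -2.46, -1.68 and -4.15 for INHBE. Against Control gRNA, those for ATF2 gRNA and JUN gRNA were -0.79 and -0.82 for STC2, -1.26 and -0.97 for VEGFA, and -0.89 and -0.50 for INHBE. For GDF15 the effect in ATF2 gRNA differed by -2.42 from Control gRNA and by -1.64 from JUN gRNA. These are smaller folds from a higher untreated level. Mean GDF15 went from 8.33 to 10.6 CPM in ATF2 gRNA, from 0.214 to 1.47 CPM in Control gRNA and from 0.283 to 1.12 CPM in JUN gRNA.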

How the results depend on the processing

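Replicate numbers showed no clear pairing of the libraries. Same-number deviations had a median correlation of 0.00775 in experiment 1 and 0.0597 in experiment 2, against 0.00114 and -0.0217 for different numbers. A weak pairing could be missed with 16 and 14 same-number pairs. The replicate block changed no call of STC1, STC2, VEGFA, INHBE or GDF15. Of the tested values of these genes, 435 under other settings kept their direction and their side of the threshold, 2 lost and 1 gained a call. With 1 library left out 830 did so, 3 lost and 6 gained a call, and 14 changed sign. Of the STC1 values with no test, 42 under other settings and 97 with 1 library left out moved by less than the replicate SD, and 1 changed sign. The changed calls stand beside their results above, with 1 more: untreated STC2 in ATF2 gRNA was called without Control gRNA untreated replicate 2 (0.19). Between ATF2 gRNA and JUN gRNA, 1 of 5 members was called, against 2 with DESeq2, 0 when these groups were fitted alone, and 1 to 3 without 1 library. In untreated DLK KO 1 of 4 was called, and 1 to 2 without 1 library. Values that were not called and changed sign without 1 library had these ranges: untreated JUN gRNA, -0.0879 to 0.634 for GDF15, -0.0309 to 0.12 for INHBE and -0.0549 to 0.0485 for STC2; double KO with vincristine, -0.36 to 0.11 for INHBE, -0.34 to 0.33 for STC2 and -0.36 to 0.0206 for VEGFA. The STC2 difference between the guides ran from -0.0174 to 0.0748, and STC1 with vincristine in JUN gRNA, which has no test, from -0.13 to 0.0455. The cause was not tested. Over all genes, fits of the compared groups alone called 3529 genes in WT (5498 with all groups), 3207 in DLK KO (1190), 271 in LZK KO (707), 1028 in double KO (12), 768 in ATF2 gRNA (1267) and 1082 for LZK KO against WT (2262). Without 1 library the DLK KO count fell as low as 598 and the LZK KO count to 452. The likeness to STC1 depended on the measure: the 5 genes ranked 28 to 155 by Spearman correlation of group means and 5 to 284 over libraries. Depth limits ADM, LIF, FGF21 and, in experiment 1, GDF15.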
